A study of Mus musculus with 4 samples.

Results

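Oligodendrocyte precursor genes were followed in lumbar spinal cord from wild type (WT) and G93A animals, the latter a transgenic mouse model of amyotrophic lateral sclerosis that carries mutant human SOD1, with and without spermidine (SD). The set holds 10 of the 18674 gene names in the deposited table, namely Pdgfra, Cspg4, Olig1, Olig2, Sox10, Gpr17, Bmp4, Enpp6, Ptprz1 and Vcan, chosen by name as markers of precursors and of cells that have just left the precursor state. There were 4 libraries, 1 for each of WT vehicle (PBS), WT + SD, G93A vehicle and G93A + SD. According to the methods, mice were males on a B6/SJLF1 background, and the G93A mice were of the H1 high-expresser strain. They were aged 100 days when tissue was taken after 30 days of dosing with SD or PBS. The labels give 4 treatments per week, and for the injected mice of the study the methods give 5 mg/kg of SD into the peritoneum. How many animals stand behind a library is not stated in the sources used here, and all values come from whole lumbar tissue. Since each condition has 1 library, no difference below has a replicate check. No test was run, and p-values are absent.

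Oligodendrocyte precursors are the dividing glial cells of the adult cord from which new myelinating oligodendrocytes arise. PDGF, acting on the receptor encoded by Pdgfra, keeps them dividing. Olig1, Olig2 and Sox10 encode the transcription factors that set the lineage, and Gpr17 and Enpp6 are switched on when a precursor commits to become an oligodendrocyte. BMP signals, among them BMP4, hold precursors back from that step and can turn them towards astrocytes. None of these genes is limited to precursors. Olig1, Olig2, Sox10 and Enpp6 are also read in later oligodendrocytes, Sox10 in Schwann cells, Pdgfra and Vcan in fibroblasts, Cspg4 in pericytes and Ptprz1 in astrocytes.

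Values are RPKM, that is, reads divided by transcript length in kilobases and by the size of the library, a unit inferred from the values. A fold is the plain ratio of RPKM, and a log2 fold change was computed after adding 0.1 RPKM to both values. A gene was called higher or lower where that log2 fold change reached 1.5-fold (0.58) in size. As background, the same rule was applied to the 12987 names with a mean of at least 1 RPKM, which 9 of the 10 genes reached, Bmp4 being the one below it. No depth was given in the sources used here, but low values multiplied by transcript length clustered at a step that may be 1 read pair, which puts depth between an estimated 36800000 and 38600000 pairs per library. The number of read pairs behind a gene is therefore an estimate, and no interval was derived from it.

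Among the 10 genes, Vcan had the widest range over the 4 libraries, its highest value being 2.21 times its lowest, and its rows differ in their exons. Vcan encodes versican, a large chondroitin sulphate proteoglycan of the extracellular matrix. It lies at chr13:89655312-89742509 on the minus strand of GRCm38. The table has 5 rows for it, each a RefSeq transcript. By the paired GENCODE transcripts, V0 (12427 bases) has 15 exons. Exon 7 (chr13:89702918-89705797, 2880 bases) carries the alpha glycosaminoglycan attachment region and exon 8 (chr13:89688285-89693501, 5217 bases) the beta region, and both lie wholly within the coding sequence. V1 (8332 bases) lacks exon 7, V2 (5702 bases) lacks exon 8 and V3 (2321 bases) lacks both. The remaining row is a short transcript of 6 exons and 2273 bases that ends after the first exons. V2 is known as the main versican of the adult central nervous system. For each of the 4 full-length forms, 1 splice junction is shown to illustrate how its exons are joined. The junction printed for V0 is also part of V2, which holds exon 7 too. The comparison of the rows below uses their values and the exons they hold, not reads across junctions. Each junction has 25 bases on each side, 5′ to 3′ on the transcript, in lower case before it and in capitals after it.
V0, exon 6 to exon 7: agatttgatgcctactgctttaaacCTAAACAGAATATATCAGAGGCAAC
V1, exon 6 to exon 8: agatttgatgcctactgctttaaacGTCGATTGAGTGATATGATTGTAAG
V2, exon 7 to exon 9: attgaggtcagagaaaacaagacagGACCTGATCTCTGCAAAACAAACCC
V3, exon 6 to exon 9: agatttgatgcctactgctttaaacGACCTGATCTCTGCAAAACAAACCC

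The set did not move as a block between genotypes. Both G93A libraries were above both WT libraries for 6 genes, namely Pdgfra, Cspg4, Gpr17, Bmp4, Ptprz1 and Vcan. Both were below for Olig1 and Enpp6, while the libraries of the 2 genotypes overlapped for Olig2 and Sox10. Such separation was common in the table, where 43.7% of names were above and 32.6% below in both G93A libraries. Under vehicle, 1 of the 10 genes, Gpr17, was called higher in G93A and 0 were called lower, against a background of 13.1% of names higher and 4.34% lower, so that the share of the set was near that of the table. Under SD, 4 of 10 were called higher, namely Cspg4, Gpr17, Bmp4 and Vcan, and 0 lower, against 15.8% and 7.85% of names. Bmp4 is not among the names of that background, and of the 9 genes that are, 3 were called higher. The median log2 fold change of the 10 genes was 0.18 under vehicle and 0.42 under SD, beside 0.05 and 0.047 over the 12987 names. The 2 genotype comparisons share no library.

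**Figure D1:**
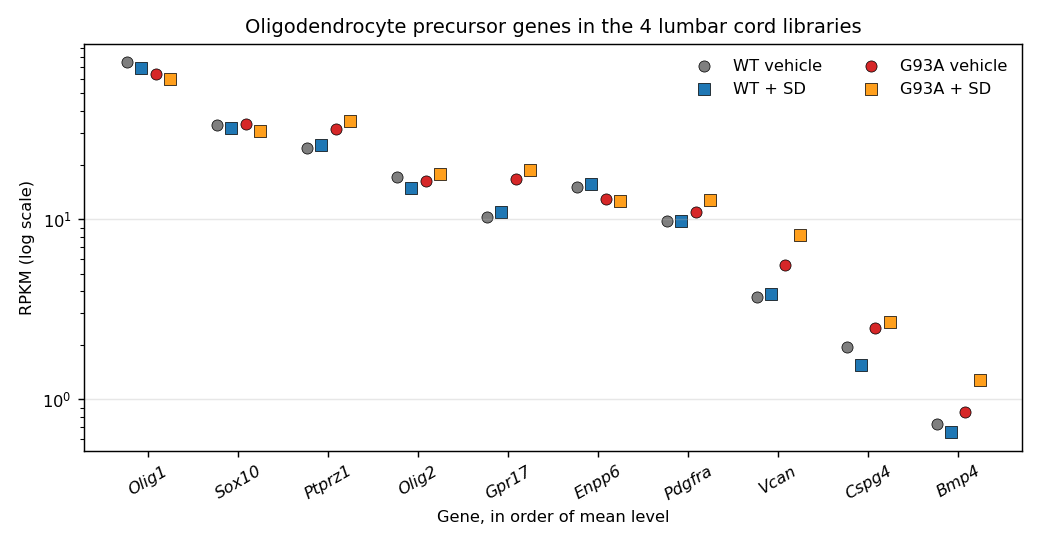
RPKM (log axis) of each gene in the 4 libraries, 1 point per library, with genes in order of their mean. Olig1 was the highest gene with a mean of 66.8 RPKM and Bmp4 the lowest with 0.879 RPKM. Of the 10 genes, 7 had their highest point in G93A + SD, and the share of all names with that trait was not computed.

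Of the receptors, PDGF receptor alpha is the one that defines the precursor. Pdgfra had 9.81 RPKM in WT vehicle, 9.76 RPKM in WT + SD, 11.0 RPKM in G93A vehicle and 12.8 RPKM in G93A + SD, as the mean of its 2 rows. The WT libraries were close to each other and both G93A libraries lay above them, by 1.12-fold under vehicle and 1.31-fold under SD, neither of which reached 1.5-fold. An estimated 2375 to 3370 read pairs stood behind each value of its rows.

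Gpr17 encodes a G protein-coupled receptor that marks committed precursors and is switched off again before myelination. Its level was 10.4 RPKM in WT vehicle, 11.1 RPKM in WT + SD, 16.8 RPKM in G93A vehicle and 18.9 RPKM in G93A + SD. The lower G93A library was 1.52-fold above the higher WT library, the widest gap of the 10 genes. The log2 fold change was 0.69 under vehicle and 0.77 under SD, higher than that of 89.0% and 88.1% of the 12987 names. Gpr17 was the one gene called in both genotype comparisons. It lies at chr18:31942997-31949636 and overlaps Lims2 on the opposite strand, and nothing says that reads were counted by strand. Lims2 itself had between 7.03 and 8.01 RPKM and was lowest in G93A + SD, where Gpr17 was highest.

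Ptprz1 encodes a receptor-type tyrosine phosphatase that carries chondroitin sulphate and binds pleiotrophin. Its level was 25.02 RPKM in WT vehicle, 25.9 RPKM in WT + SD, 31.7 RPKM in G93A vehicle and 35.3 RPKM in G93A + SD. The genotypes did not overlap, and the folds of 1.27 under vehicle and 1.36 under SD stayed below the call. Estimated read pairs were between 7432 and 10996, the most of any gene of the set.

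The lineage factors, whose means over the 4 libraries were above those of the other genes apart from Ptprz1, had the narrowest ranges. Olig1, a basic helix-loop-helix factor needed for the maturation of oligodendrocytes, had 74.4 RPKM in WT vehicle, 69.0 RPKM in WT + SD, 64.0 RPKM in G93A vehicle and 60.04 RPKM in G93A + SD. Both G93A libraries were the lower ones, at 0.861-fold and 0.871-fold of their WT counterparts. Olig2, its close relative that specifies motor neurons and oligodendrocytes in the embryonic cord, had 17.2, 15.0, 16.2 and 17.9 RPKM in the same order. Its highest and lowest values were the libraries with SD, G93A + SD and WT + SD, so that the genotype difference was -0.085 on the log2 scale under vehicle and 0.25 under SD. Sox10, an HMG box factor that switches on myelin genes, had 33.2, 32.2, 34.0 and 30.8 RPKM, and its highest value was 1.10 times its lowest, the narrowest range of the set.

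Enpp6 encodes a choline-specific phosphodiesterase and marks newly forming oligodendrocytes. Its level was 15.2 RPKM in WT vehicle, 15.7 RPKM in WT + SD, 12.9 RPKM in G93A vehicle and 12.6 RPKM in G93A + SD. Both G93A libraries were below both WT libraries, at 0.850-fold under vehicle and 0.803-fold under SD. Its direction was thus opposite to that of Gpr17, although both genes mark the step out of the precursor state, and neither of its differences reached 1.5-fold.

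The proteoglycans were among the genes with the widest differences. Cspg4, which encodes the NG2 proteoglycan of the precursor surface, had 1.96 RPKM in WT vehicle, 1.55 RPKM in WT + SD, 2.50 RPKM in G93A vehicle and 2.71 RPKM in G93A + SD. Its G93A values were above both WT values by at least 1.28-fold. The fold was 1.75 under SD, where it was called, and 1.28 under vehicle, where it was not, and the call was lost with 1 RPKM added in place of 0.1 RPKM. The WT + SD library was the lowest of the 4, so that the larger fold under SD goes with a low WT value as well as a high G93A value. An estimated 480 to 848 read pairs stood behind it.

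Vcan had 3.69 RPKM in WT vehicle, 3.85 RPKM in WT + SD, 5.58 RPKM in G93A vehicle and 8.18 RPKM in G93A + SD, as the mean of its 5 rows. The WT libraries were nearly level, G93A vehicle was above them and G93A + SD was the highest. Under SD the fold was 2.12, the largest in the set, with a log2 fold change of 1.07 that exceeded that of 92.1% of names. Under vehicle the plain fold was 1.51, but the log2 fold change of 0.582 lay just under the limit of 0.585 and Vcan was not called. It was called without the added 0.1 RPKM, or when the short row was left out, an alternative chosen after seeing the data.

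Each of the 5 Vcan rows was highest in G93A + SD. V3 had 5.14 RPKM in WT vehicle, 5.23 RPKM in WT + SD, 8.27 RPKM in G93A vehicle and 12.3 RPKM in G93A + SD. V1 had 3.12, 3.18, 5.15 and 7.36 RPKM, and V2 had 5.32, 5.67, 7.63 and 11.4 RPKM in the same order. V0 had 3.69, 3.91, 5.50 and 7.94 RPKM. Between the vehicle libraries the plain fold was 1.65 for V1 and 1.61 for V3, but 1.49 for V0 and 1.43 for V2, so that of the 4 full-length rows those without exon 7 showed the larger folds. The short row had between 1.18 and 1.89 RPKM, and its fold under vehicle was 1.13.

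The rows share most exons, and how a read in a shared exon was counted is not stated. If it was counted in every row that holds the exon, the difference between 2 rows gives the reads of the exon that sets them apart, together with those of the ends, which differ in length between the transcripts. RPKM times length in kilobases gives the reads of a row scaled to the library, called scaled reads here. For exon 7, V2 minus V3 gave 18.4 scaled reads in WT vehicle and V0 minus V1 gave 19.9, and over the 4 libraries these estimates differed by between 3.46% and 9.40%. For exon 8 the estimates differed by between 3.83% and 13.2%. In scaled reads, the gap between the 2 estimates is by arithmetic the same for exon 7 and exon 8, so exon 8 is no second check. The closeness is what counting in every row would give, and it was not tested in another way.

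By the differences with V3, the WT libraries had 18.4 scaled reads in exon 7 with vehicle and 20.2 with SD, and the G93A libraries 24.3 with vehicle and 36.1 with SD. Exon 8 had 14.1, 14.4, 23.7 and 32.6 scaled reads in the same order. The vehicle libraries differed by 1.32-fold in exon 7 and by 1.68-fold in exon 8, with G93A the higher. Under SD the folds were 1.79 and 2.27. By the differences with V0 the folds were 1.28 and 1.59 under vehicle, and 1.69 and 2.08 under SD. With the longer ends solved for as an unknown of their own they were 1.35 and 1.80 under vehicle. Exon 7 thus had 1.31 and 1.40 times the reads of exon 8 in the WT libraries, but 1.03 and 1.11 times in the G93A libraries. These are totals over exons of unequal length. Per kilobase, exon 7 had 6.39 scaled reads and exon 8 2.70 in WT vehicle, and 8.44 and 4.54 in G93A vehicle, so exon 7 stayed the denser. Each of these values comes from 1 library, and no replicate shows how far they vary between animals.

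**Figure D2:**
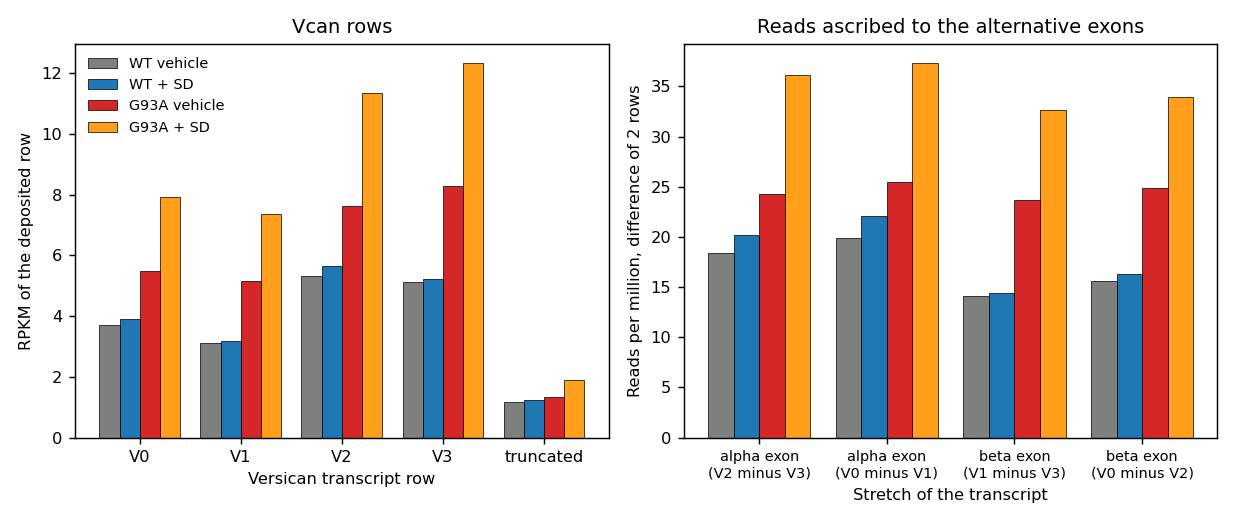
Left, RPKM of the 5 deposited Vcan rows in each library. Right, reads scaled to the library ascribed to the alternative exon 7 (alpha) and exon 8 (beta), each as the difference of 2 rows. Bars start at 0, and the gap between the WT and G93A bars is wider for the beta exon, 1.68-fold against 1.32-fold under vehicle.

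Bmp4, the ligand of the set, had 0.727 RPKM in WT vehicle, 0.656 RPKM in WT + SD, 0.849 RPKM in G93A vehicle and 1.28 RPKM in G93A + SD. Of the 4 libraries G93A + SD stood apart, and the other values were close together. Only an estimated 55, 52, 67 and 102 read pairs stood behind them, the fewest of any gene of the set, so that counting error is larger here than for the others. Bmp4 lies at chr14:46383520-46390669 and overlaps Gm15217 and Gm15222 on the opposite strand. Gm15217 was at 0.0815 RPKM in G93A + SD and at or near 0 RPKM in the other libraries, and its part in the value of Bmp4 was not tested. The fold under SD was 1.96 and was called, and under vehicle it was 1.17 and was not. With 1 RPKM added in place of 0.1 RPKM the call was lost, at a log2 fold change of 0.46. Because its mean lies below 1 RPKM, the background over all 18674 names applies to it. Without a filter, 14.4% of names were higher and 5.31% lower in G93A under vehicle, and 17.1% and 7.82% under SD. With SD, 2.25% were higher and 2.8% lower in WT, and 2.97% and 2.55% in G93A.

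With SD, none of the 10 genes was called in either genotype. Between the WT libraries the folds ran from 0.789 for Cspg4 to 1.07 for Gpr17, with 4 genes above and 6 below 1. Of the 12987 names, 54.9% were above 1, 0.732% were called higher and 1.16% lower. Between the G93A libraries the folds ran from 0.906 for Sox10 to 1.51 for Bmp4, with 7 genes above and 3 below 1. Here 52.1% of the 12987 names were above 1, 1.24% were called higher and 0.932% lower. Bmp4 and Vcan had the largest differences, with log2 fold changes of 0.54 for both. That of Bmp4 was above those of 96.5% of all 18674 names, and that of Vcan above those of 98.6% of the 12987 names. Without the added 0.1 RPKM, Bmp4 reached the call. Of 10 fibroblast markers, 7 were also highest in G93A + SD and 3 in G93A vehicle. Only 5 of the 10 had a mean of at least 1 RPKM. Both G93A libraries were above both WT libraries for 4 of the 10, beside 43.7% of the 12987 names. The share of all names that were highest in G93A + SD was not computed. Dcn, the gene of decorin and picked after its values were seen, had 5.52 RPKM in WT vehicle, 6.98 RPKM in WT + SD, 5.42 RPKM in G93A vehicle and 9.85 RPKM in G93A + SD. It was lowest in G93A vehicle, unlike Vcan and Bmp4. Whether fibroblasts in the dissected tissue take part in the differences of Vcan and Bmp4 was not tested. The difference between the SD effects in G93A and WT was 0.67 for Bmp4, 0.49 for Vcan and 0.43 for Cspg4 on the log2 scale, and was not tested.

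**Figure D3:**
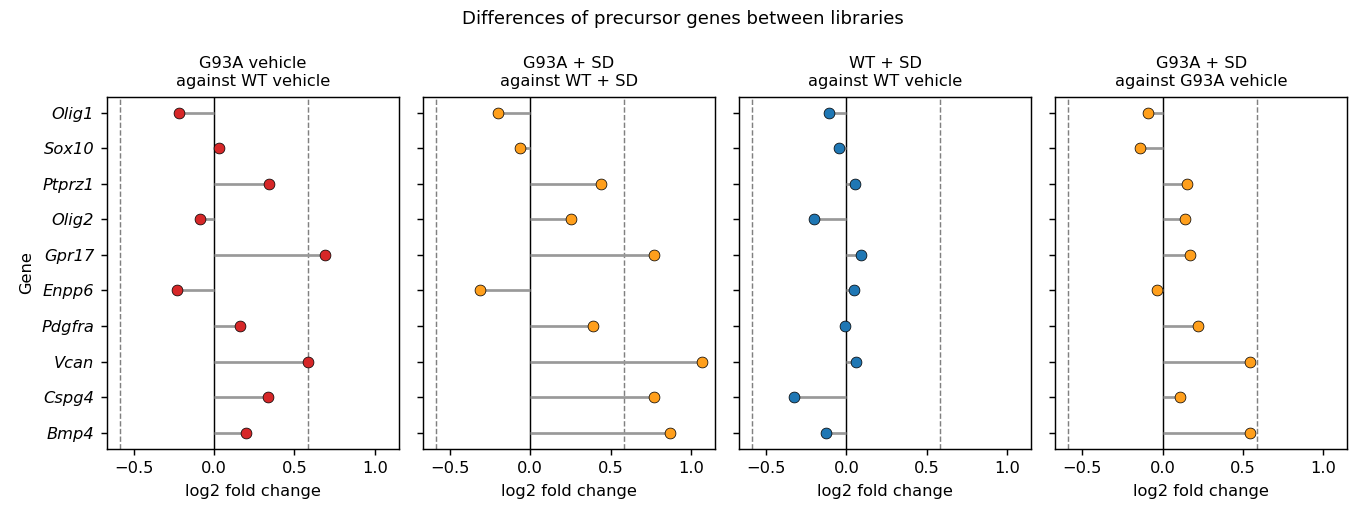
Log2 fold change (0.1 RPKM added) of each gene in the 4 comparisons, 1 value per gene, with dashed lines at 1.5-fold. Points beyond the dashed lines are Gpr17 under vehicle and Cspg4, Gpr17, Bmp4 and Vcan under SD, and 0 of the 10 genes pass in the comparisons of SD with vehicle.

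The promoters of Vcan and Bmp4 are shown because these genes had the largest differences with SD in G93A. The window is the 250 bases before the RefSeq start on GRCm38.p6, 5′ to 3′ on the strand of the gene. It was searched for the E-box CANNTG, which reads the same on both strands and which basic helix-loop-helix proteins such as OLIG1 and OLIG2 can bind, and for ACAAT or its reverse complement, a core of SOX protein motifs. E-boxes are in capitals.
Vcan, chr13:89742513-89742762, minus strand: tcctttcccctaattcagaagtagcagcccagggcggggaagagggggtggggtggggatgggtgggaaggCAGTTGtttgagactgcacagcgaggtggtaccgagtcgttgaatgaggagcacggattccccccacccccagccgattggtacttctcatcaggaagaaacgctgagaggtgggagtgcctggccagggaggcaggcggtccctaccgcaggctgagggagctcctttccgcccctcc
Bmp4, chr14:46390670-46390919, minus strand: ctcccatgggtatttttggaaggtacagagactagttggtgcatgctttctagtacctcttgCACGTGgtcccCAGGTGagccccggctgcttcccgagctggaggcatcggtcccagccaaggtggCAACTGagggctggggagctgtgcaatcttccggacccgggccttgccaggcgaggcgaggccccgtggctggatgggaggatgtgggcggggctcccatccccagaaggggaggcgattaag

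The Vcan window holds 1 E-box and the Bmp4 window 3, and neither holds the SOX core. Of the 32851 windows in the reference table, 66.2% hold an E-box and 27.7% the SOX core. Of the 7 genes with a window, Pdgfra also holds 1 E-box, while Cspg4, Olig2, Enpp6 and Ptprz1 hold 0. Cspg4, Olig2 and Enpp6 each hold 1 SOX core. A match is only a run of letters, and a window without one says nothing of the factor.

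Other genes of the precursor split in direction too. Of 19 companion genes in the table, 4 were called higher and 0 lower in G93A vehicle, beside 13.1% and 4.34% of names, with a median log2 fold change of 0.014. Lhfpl3, with the highest level among them apart from Bcan, had 22.1 RPKM in WT vehicle, 24.7 RPKM in WT + SD, 29.8 RPKM in G93A vehicle and 41.4 RPKM in G93A + SD. Matn4, which encodes a matrix adaptor protein, had 2.27, 3.52, 6.28 and 7.03 RPKM in the same order. Bcan, which encodes the lectican brevican, had 55.7, 51.8, 38.2 and 33.7 RPKM, lower in both G93A libraries and thus opposite in direction to Vcan. Under SD, 6 companions were called higher and 2 lower in G93A, beside 15.8% and 7.85% of names, with a median of 0.097.

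Genes of committed and newly formed oligodendrocytes went mostly the way of Gpr17 rather than Enpp6. Both G93A libraries were above both WT libraries for 11 of the 15 genes in the table, and 4 were called higher under vehicle and 6 under SD, with 0 lower in either. Over the 12987 names, 43.7% were above in both G93A libraries, and 13.1% and 15.8% were called higher. Tcf7l2, 1 of those called, passed the filter on the mean through its G93A values. Rras2, a small GTPase, had 3.08 RPKM in WT vehicle, 3.33 RPKM in WT + SD, 6.19 RPKM in G93A vehicle and 7.51 RPKM in G93A + SD. Sirt2, a deacetylase abundant in oligodendrocytes, had 84.4, 77.9, 102.0 and 109.9 RPKM in the same order. Bcas1, a marker of early myelinating cells and the highest of the list, had 174.7, 206.9, 144.7 and 151.3 RPKM, lower in both G93A libraries.

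Mature oligodendrocyte genes were more often lower than higher in G93A. Of 16 genes, both G93A libraries were below both WT libraries for 9 and above for 4, beside 32.6% and 43.7% of names, and the median log2 fold change was -0.14 under vehicle and -0.21 under SD. The calls did not follow that direction, with 2 higher and 0 lower under vehicle, beside 13.1% and 4.34% of names, and 3 higher and 2 lower under SD, beside 15.8% and 7.85%. Cldn11, a tight junction gene of myelin, was called higher under vehicle together with Klk6. It had 194.8, 216.7, 325.7 and 327.2 RPKM in the order used above and was named after its values were seen. Mbp, which encodes myelin basic protein, had 4669 RPKM in WT vehicle, 4662 RPKM in WT + SD, 3714 RPKM in G93A vehicle and 3575 RPKM in G93A + SD. Klk6, a secreted protease of mature oligodendrocytes, had 97.9, 101.2, 219.7 and 262.4 RPKM and was the largest exception. Mobp, another myelin gene, had 262.0, 215.0, 191.8 and 145.1 RPKM. In whole tissue, fewer cells of a type and less RNA per cell cannot be told apart.

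In the PDGF pathway, the ligand that drives precursors was level under vehicle. Pdgfa had 20.1 RPKM in WT vehicle, 16.7 RPKM in WT + SD, 20.4 RPKM in G93A vehicle and 21.9 RPKM in G93A + SD. Of the 15 genes of the list, 3 were called higher in G93A under vehicle and 5 under SD, beside 13.1% and 15.8% of names, and 0 lower, beside 4.34% and 7.85%. Plat, tissue plasminogen activator, which can activate the PDGF-CC ligand, had the widest difference with 18.8, 19.3, 61.3 and 87.7 RPKM in the same order. Ptpn11, the phosphatase SHP2 that relays receptor signals and the highest gene of the list, stayed between 45.7 and 56.2 RPKM. Sos1, an exchange factor that activates RAS, had 15.1, 16.8, 11.6 and 11.3 RPKM, the largest difference downwards.

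In the BMP pathway, 3 of the 22 genes past the filter on the mean were called higher in G93A under vehicle and 1 lower, close to the 13.1% and 4.34% of all names. Under SD 5 were higher and 3 lower, beside 15.8% and 7.85% of names. Bambi, a decoy receptor that damps BMP signals, had 0.735 RPKM in WT vehicle, 0.819 RPKM in WT + SD, 1.78 RPKM in G93A vehicle and 2.05 RPKM in G93A + SD, and passed the filter through its G93A values. Acvr2b, a type II receptor, was the gene lower under vehicle, with 1.66, 1.45, 0.901 and 0.717 RPKM. Id2 and Id4 encode inhibitors of helix-loop-helix factors that BMP signals induce, and Id4 had 36.9, 36.6, 44.9 and 58.6 RPKM while Id2 stayed between 49.4 and 63.2 RPKM. Between the G93A libraries, 18 of the 22 genes were above 0 on the log2 scale with SD, as were 52.1% of the 12987 names, and 2 were called higher against 1.24% of names, both named after their values were seen. These were Bmp6, which went from 3.06 to 6.17 RPKM, and Id3, which went from 26.5 to 40.1 RPKM.

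Partners of PTPRZ1 and of versican in the matrix split by gene. Of 23 past the filter on the mean, 7 were called higher and 2 lower in G93A under vehicle, beside 13.1% and 4.34% of names. Under SD 7 were higher and 6 lower, beside 15.8% and 7.85% of names, and 1 of the 23, Tnc, passed the filter through its G93A values. Cd44, a hyaluronan receptor also abundant in reactive glia, had 3.60 RPKM in WT vehicle, 3.65 RPKM in WT + SD, 27.8 RPKM in G93A vehicle and 40.5 RPKM in G93A + SD. Hapln1, a link protein that ties lecticans to hyaluronan around neurons, had 5.34, 6.10, 2.85 and 2.51 RPKM. Cntn1, a neuronal ligand of PTPRZ1 and the highest of the list, stayed between 91.4 and 108.3 RPKM. Nfasc, which encodes the adhesion protein neurofascin of nodes and paranodes, had 52.4, 54.0, 74.1 and 72.3 RPKM.

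**Figure D4:**
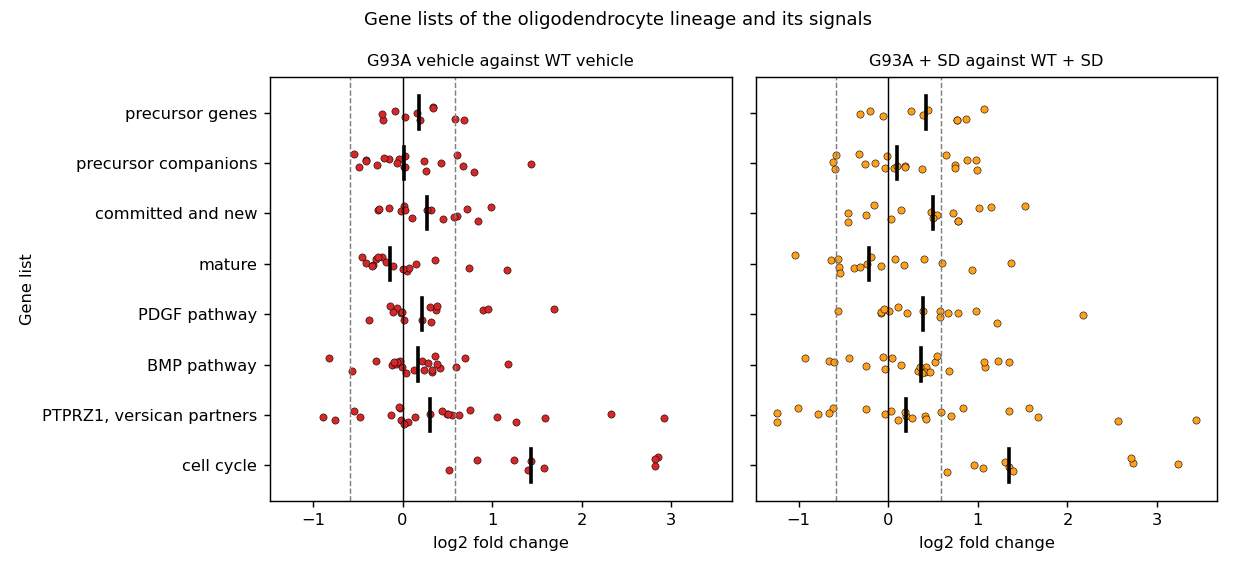
Log2 fold change (0.1 RPKM added) between genotypes under vehicle (left) and under SD (right). Each point is a gene, with a mean of at least 1 RPKM except for Bmp4 among the precursor genes, black bars are medians and dashed lines mark 1.5-fold. The medians of the precursor genes were 0.18 and 0.42, while those of the mature genes were below 0 and the cell cycle genes lay to the right.

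Markers of other cells moved with genotype at the same time. Summed over 12 microglial markers, the level was 204.6 RPKM in WT vehicle, 184.0 RPKM in WT + SD, 1214 RPKM in G93A vehicle and 1283 RPKM in G93A + SD, and all 12 were higher in both G93A libraries, beside 43.7% of names. The sum of 12 astrocyte markers was 2421, 2252, 4535 and 5085 RPKM, with 8 of 12 higher in both, beside the same 43.7%. For 10 fibroblast markers the sum was 16.5, 16.9, 42.8 and 49.0 RPKM, of which Serping1 alone, also an astrocyte and immune gene, went from 2.06 RPKM in WT vehicle to 25.7 RPKM in G93A vehicle. For 10 pericyte markers the sum was 51.6, 50.1, 58.8 and 53.3 RPKM. For 9 Schwann cell markers it was 77.7, 77.6, 128.5 and 137.7 RPKM, most of it from Pmp22 and Fxyd1. For 10 endothelial markers it was 92.7, 87.8, 83.2 and 70.6 RPKM. Neuronal markers were lower in both G93A libraries for 12 of 12 genes, beside 32.6% of names. The part of these cells in the values of Pdgfra, Cspg4, Ptprz1 and Vcan was not tested.

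With no filter on the mean, 14 of the 14 cell cycle genes were higher in both G93A libraries, beside 43.7% of the 12987 names. Of the 9 with a mean of 1 RPKM or more, 6 were below 1 RPKM in both WT libraries and passed through G93A. Their sum over 14 genes was 15.4 RPKM in WT vehicle, 15.0 RPKM in WT + SD, 38.2 RPKM in G93A vehicle and 37.7 RPKM in G93A + SD. Pcna, the highest of them, had 7.38, 7.18, 10.6 and 11.4 RPKM, and Mki67 had 0.225, 0.238, 2.25 and 2.14 RPKM. Which cells divided cannot be told from whole tissue.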

How the data were processed

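RNA from the lumbar spinal cord was measured in 4 libraries, 1 per condition, with conditions taken from the sample titles. The methods and the submitters' processing notes name STAR and GRCm38 (mm10), and the methods name HTSeq counts on an Ensembl gene set from 53 bp reads. The authors deposited 1 table of 23750 RefSeq rows under 18674 names with no unit. The authors made these RPKM values from aligned reads by a step not given in the sources used here, and the unit is inferred, since the values are not whole and behave as such by transcript length. The authors' ratio columns were not used. No test was run.

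Rows of a name were averaged. The log2 fold change used a pseudocount of 0.1 RPKM, and a call needed 1.5-fold. Alternatives were median-ratio scaling, a pseudocount of 1 RPKM or none, the row with the highest mean, a 2-fold threshold and no filter on low values. Leaving out the short Vcan row and the comparison of Vcan rows were added after seeing the data. The members and lists were chosen with earlier results of these data known. Named are the 10 genes and, of each list described by gene, the 2 highest and those with the largest rise and fall under vehicle. A few others stand where a sentence turns on them. Not every gene that the rule names is reported here. Lengths came from GENCODE M21 for 97.0% of rows, promoter sequences from RefSeq on GRCm38.p6 for 7 of 10 genes. The analysis ran in Python 3.11.15 with pandas 2.3.3, numpy 2.4.6 and, for plots, matplotlib 3.10.9, and was tested on simulated data.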

Additional observations from a re-analysis of the deposited data

Results flagged for a closer look

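Some of the 10 genes differed in opposite directions in the 2 genotypes with SD, or in opposite directions between genotypes under the 2 treatments. These contrasts of single libraries were not tested. With SD, Bmp4 differed by 0.54 on the log2 scale in G93A and by -0.13 in WT, 0.671 apart. Cspg4 differed by 0.11 in G93A and by -0.32 in WT, 0.431 apart. Olig2 differed by 0.14 and -0.20, 0.34 apart, and its genotype difference was 0.25 under SD and -0.085 under vehicle, the same 0.34 apart since both use the same 4 values. Pdgfra differed by 0.22 and -0.0068, 0.225 apart, with a WT difference close to 0. Enpp6 differed by -0.033 and 0.048, a gap of -0.081, and the genotype difference of Sox10 was -0.062 under SD and 0.032 under vehicle, a gap of -0.0949. The gaps of Enpp6 and Sox10 rest on differences near 0.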

How the results depend on the processing

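No paired analysis was run, and since each condition has 1 library, no library could be left out. Without replicates or read counts, an alternative log2 fold change or median was read by whether it changed the direction or the side of 1.5-fold. A number of genes or a percentage was read as kept if it equalled the main value or lay within 1.5 times of it. For genes higher in G93A vehicle, the number among the 10 was 1, and it was 2 (Gpr17 and Vcan) with no pseudocount, with the row of the highest mean, or without the short Vcan row, and 0 at 2-fold. For genes higher in G93A + SD than in WT + SD it was 4, and it was 2 (Gpr17 and Vcan) with a pseudocount of 1 RPKM and 1 (Vcan) at 2-fold. With SD in G93A it was 0, and 1 (Bmp4) with no pseudocount. With no filter on low values, the background of names between the WT libraries was 2.25% higher and 2.8% lower, and between the G93A libraries 2.97% higher and 2.55% lower. The other 65 alternative values for the set and its background were kept by these rules. Of the alternative values of single genes, 193 kept their direction and side and 7 did not. Of those, 1 changed direction, Sox10 in G93A vehicle, at -0.031 with median-ratio scaling. That scaling moved the median of all names by less than 0.1 on the log2 scale. By estimated read pairs, depth limits Bmp4 most, then the short Vcan row.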

Other observations

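Adamts4, which encodes a protease of oligodendrocytes and other cells that cleaves versican and brevican, was picked after its values were seen. Its level was 10.9 RPKM in WT vehicle, 3.23 RPKM in WT + SD, 17.0 RPKM in G93A vehicle and 3.29 RPKM in G93A + SD. It was thus lower with SD in both genotypes, with log2 fold changes of -1.73 and -2.33, whereas Vcan was level in WT and higher in G93A with SD. The other proteases of the list with a mean of at least 1 RPKM, Adamts1 and Adamts5, did not share this pattern. Adamts1 had 3.72, 4.54, 11.4 and 14.6 RPKM and Adamts5 had 1.82, 2.21, 4.49 and 5.77 RPKM in the same order.

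Tnc, which encodes tenascin C, another matrix ligand of PTPRZ1, had 0.875 RPKM in WT vehicle, 0.932 RPKM in WT + SD, 4.77 RPKM in G93A vehicle and 5.99 RPKM in G93A + SD, and the lectican gene Ncan had 10.3, 10.1, 21.6 and 30.2 RPKM. Like Vcan, both were highest in G93A + SD, while the lectican genes Bcan and Acan were lowest there. Acan had 3.87, 3.93, 2.26 and 1.61 RPKM. These genes were also picked after their values were seen, and 1 library per condition gives no replicate check.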
